A study of Mus musculus with 14 samples.

Results

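The genes described here encode enzymes of the lysosome, proteins of its limiting membrane, and a few partners that acidify it, travel to it or regulate it. They are 47 genes, picked by symbol from the deposited count table of a mouse brain study and all found there once, among 55359 rows with an Ensembl gene. Their expression was compared between 4 sham samples, 5 samples taken 2 d and 5 samples taken 7 d after cerebral venous sinus thrombosis (CVST), in which a clot blocks a vein that drains the brain. All 14 samples were total RNA from the cortex of both hemispheres, so injured and spared cortex were not separated. The labels call the first group sham and the others CVST-2d and CVST-7d, and the same names with a number are used here for single libraries. Strain, genotype, sex, age and the time at which sham cortex was taken are not stated in the labels. The labels number the samples without saying that each is a separate animal, so the p-values measure the spread between these samples, which may be technical.

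Lysosomes are acidic organelles in which proteins, sugars, lipids and nucleic acids delivered by endocytosis, phagocytosis and autophagy are broken down. Cathepsins cut proteins, glycosidases and sulfatases shorten sugar chains, and a further set of hydrolases with small activator proteins takes lipids apart. Inherited loss of many of these enzymes leads to storage disease in the brain, and in nervous tissue several of them are abundant in microglia and macrophages, the cells that clear debris. Some of the genes carry an E-box motif near their start, a motif to which the transcription factor TFEB can bind.

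At 7 d after CVST, lysosomal genes were higher than in sham across most of their functions, whereas few passed the test at 2 d in the fit of all 14 libraries. Expression was compared with edgeR's quasi-likelihood test on the counts of all 14 libraries, and a gene is said to rise or fall where its p-value, adjusted by Benjamini and Hochberg over the 16918 genes tested, was below 0.05. Of the 47 genes, 46 passed the filter on low counts, and all 46 were above the filter level of 0.570 CPM (counts scaled to library size) in each sham library. The exception was Atp6v0d2, an alternative subunit of the proton pump. At 7 d, 27 of the 46 rose against sham and 0 fell, where 3.61% of all tested genes rose and 0.833% fell. At 2 d, 3 of the 46 rose and 0 fell, where 2.98% of all tested genes rose and 0.969% fell. Between 2 d and 7 d, 6 of the 46 were higher at 7 d and 0 were lower, where 1.54% of all tested genes were higher and 1.25% lower. For the counts of 0 lower, the unadjusted p was below 0.05 for 2 genes at 2 d, 0 at 7 d and 1 between the times. DESeq2 called 0 lower in each comparison, and limma voom called 3 lower at 2 d and 0 in the others. The counts higher depended on the fit: DESeq2 called 8 at 2 d and 32 at 7 d, and limma voom 11 and 23. With edgeR fitted to only the 2 groups compared, 13 were higher at 2 d and 13 at 7 d. The median log2 fold change of the 46 genes was 0.21 at 2 d, 0.70 at 7 d and 0.42 between the times, beside -0.01, -0.01 and 0.01 for all tested genes. Both comparisons with sham use the same 4 sham libraries. In bulk tissue, more cells of a type and more RNA per cell cannot be told apart.

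The size of the change differed between libraries of one group. The 47 genes together took up between 0.519% and 0.551% of gene counts in the sham libraries. Their share was 0.660%, 0.765%, 0.640%, 0.636% and 0.572% in CVST-2d-1 to CVST-2d-5, and 0.840%, 0.609%, 0.753%, 1.02% and 1.52% in CVST-7d-1 to CVST-7d-5. Every CVST library thus lay above every sham library, and CVST-7d-2 and CVST-7d-3 lay inside the range of the 2 d libraries. Such a share weighs abundant genes most. The difference in log2 CPM from the sham mean had a median over the 46 tested genes of 0.30, 0.39, 0.20, 0.14 and 0.10 in CVST-2d-1 to CVST-2d-5. That median was 0.56, 0.20, 0.42, 0.87 and 0.94 in CVST-7d-1 to CVST-7d-5. Gene by gene, every 2 d library was above every sham library for 14 of the 46 tested genes, and every 7 d library for 23, where this held for 5.65% and 5.80% of all tested genes. For 4 genes, namely Ctso, Man2b1, Arsb and Gm2a, every 7 d library was above every 2 d library, where this held for 2.28% of all tested genes.

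Marker lists of several cell types differed between the groups as well. A list of 10 microglial markers summed to between 318 and 364 CPM in sham, 296 and 680 CPM at 2 d, and 419 and 1148 CPM at 7 d. Of these 10 markers, 0 rose at 2 d by edgeR's test, with 5 higher and 1 lower at an unadjusted p below 0.05 and with 2 called by DESeq2 and 3 by limma voom, and 5 rose at 7 d, among them Cx3cr1, Csf1r, Aif1 and Itgam, where DESeq2 called 6 and limma voom 4. A list of 10 monocyte and macrophage markers summed to between 7.99 and 10.53 CPM in sham, 25.8 and 101 CPM at 2 d, and 10.52 and 127 CPM at 7 d, with 2 risen at 2 d (Arg1 and Msr1) and 4 at 7 d (Mrc1, Ms4a7, F13a1 and Msr1). On that list DESeq2 called 7 higher at 2 d and 6 at 7 d, and limma voom called 5 at 2 d and 0 at 7 d. The 9 neutrophil markers summed to between 1.151 and 3.88 CPM in sham, 2.97 and 12.3 CPM at 2 d, and 1.33 and 7.39 CPM at 7 d. Only 3 of them could be tested by edgeR, and 0 passed at either time, with 2 at an unadjusted p below 0.05 at 2 d and 0 at 7 d. DESeq2 called 2 of the neutrophil markers higher at 2 d and 1 at 7 d, and limma voom 2 and 0. The 8 astrocyte markers summed to between 3390.5 and 4210.3 CPM in sham, 4037 and 4739 CPM at 2 d, and 4332 and 7967 CPM at 7 d, with 2 risen at 2 d and 2 at 7 d. They did not move together at 2 d: 5 of the 8 had a negative log2 fold change, with 3 lower at an unadjusted p below 0.05. One of them, Gfap, went from a mean of 157 CPM in sham to 1324 CPM at 2 d. For astrocytes DESeq2 called 2 higher and 0 lower at 2 d, limma voom 2 higher and 3 lower, and both called 3 higher at 7 d. The 6 endothelial markers summed to between 187 and 264 CPM in sham, 225 and 359 CPM at 2 d, and 203 and 282 CPM at 7 d, with 2 risen at 2 d and 0 at 7 d by edgeR, where 1 had an unadjusted p below 0.05 and DESeq2 and limma voom called 0. The 5 red cell genes summed to between 4.10 and 26.0 CPM in sham, 25.0 and 385 CPM at 2 d, and 2.01 and 32.5 CPM at 7 d. By edgeR 0 of the 4 red cell genes tested passed at either time, with 4 at an unadjusted p below 0.05 at 2 d and 0 at 7 d, while DESeq2 called 4 and limma voom 3 higher at 2 d and both called 0 at 7 d. The 5 choroid plexus markers summed to between 13.4 and 873 CPM in sham, 5.11 and 495 CPM at 2 d, and 9.48 and 126 CPM at 7 d, and 0 passed at either time by edgeR, DESeq2 or limma voom, with 3 lower at an unadjusted p below 0.05 at 7 d. Of the 7 oligodendrocyte and 8 lymphocyte markers (1 lymphocyte marker tested by edgeR), 0 passed against sham by any of the 3 tools, with 1 oligodendrocyte marker lower at an unadjusted p below 0.05 at 2 d. The 8 neuronal markers, which check the labelled tissue, summed to between 5339 and 6718 CPM in sham, 5647 and 6839 CPM at 2 d, and 4637 and 7348 CPM at 7 d. The lowest neuronal sums were those of CVST-7d-4 and CVST-7d-5 (4637 and 4677 CPM), which had the largest lysosomal shares. The highest was that of CVST-7d-1 (7348 CPM). Against sham, 0 neuronal markers were called at either time by edgeR, DESeq2 or limma voom, and 0 had an unadjusted p below 0.05 in edgeR. Of all these markers, 2 neutrophil markers were at 0 in all 7 d libraries and 1 lymphocyte marker in all sham libraries, and no other was at 0 throughout a group. CVST-2d-5 and CVST-7d-2, the libraries with the smallest lysosomal shares of their groups, had the lowest microglial sums (296 and 419 CPM). At the other end, CVST-2d-2 had the largest lysosomal share and the highest microglial sum at 2 d (680 CPM). The order differed at 7 d: CVST-7d-5 had the largest lysosomal share, and CVST-7d-4 the highest microglial sum (1148 CPM, against 978 CPM in CVST-7d-5). Monocyte and macrophage sums at 7 d were lowest in CVST-7d-2 (10.52 CPM) and highest in CVST-7d-5 (127 CPM). Those at 2 d were highest in CVST-2d-2 (101 CPM) and lowest in CVST-2d-1 (25.8 CPM, against 29.4 CPM in CVST-2d-5). The part of these cell types in the lysosomal results was not tested.

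Which single library entered the fit decided many calls, and this is given here once for the counts and below for each gene. Leaving out 1 library at a time, the number of lysosomal genes that rose at 7 d was 11, 5, 3 and 4 without sham-1 to sham-4. It was 21, 25, 19, 24 and 28 without CVST-2d-1 to CVST-2d-5, and 22, 32, 26, 7 and 11 without CVST-7d-1 to CVST-7d-5. The number that rose at 2 d was 0 without any 1 of the 4 sham libraries, 1, 0, 1, 1 and 7 without CVST-2d-1 to CVST-2d-5, and 2, 7, 2, 3 and 7 without CVST-7d-1 to CVST-7d-5. Between 2 d and 7 d it was 4, 3, 4 and 4 without sham-1 to sham-4, 3, 7, 3, 3 and 8 without CVST-2d-1 to CVST-2d-5, and 3, 15, 4, 3 and 3 without CVST-7d-1 to CVST-7d-5. Leaving out both CVST-2d-5 and CVST-7d-2, the libraries nearest to sham, gave 13 risen at 2 d, 33 at 7 d and 15 between the times. These libraries had the smallest lysosomal shares of their groups. Leaving them out thus favours higher counts, and this fit is no separate support for the calls. In the fit without CVST-2d-5, as in the fit without both, 2 genes fell at 2 d, Ctsf and Arsb. The median log2 fold change moved less, between 0.16 and 0.27 at 2 d, 0.57 and 0.75 at 7 d, and 0.29 and 0.48 between the times.

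**Figure D1:**
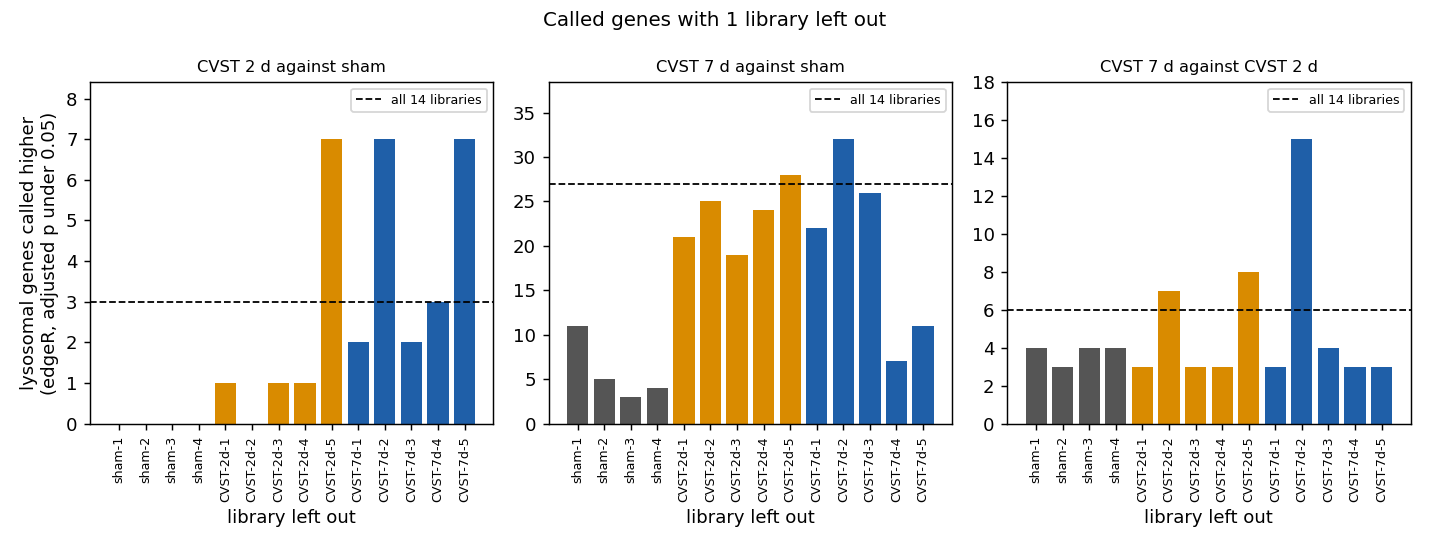
Number of lysosomal genes that were called higher (bars, from 0) when the library named on the horizontal axis was left out, coloured by that library's group, for each of the 3 comparisons. The dashed line is the number with all 14 libraries (3, 27 and 6). At 7 d the bars run from 3 without sham-3 to 32 without CVST-7d-2.

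Promoter sequence was read for the E-box core CACGTG, which is its own reverse complement, and for the longer TCACGTG on either strand, which always contains it. The sequences came from a RefSeq promoter table on build GRCm38.p6, and the 250 bases before each gene start were searched. Of the 47 genes, 41 had an entry, and 11 of the 41 (26.8%) held the core, against 6.86% of the 27025 genes in the table. TCACGTG was found in 9 of the 41 (22.0%), against 3.58% of all genes in the table. The share with the core was 25.0% among the 24 matched genes that rose at 7 d (Ctsa, Ctsd, Ctsl, Lamp1, Lgmn and Naglu) and 29.4% among the 17 that did not (Arsa, Ctsf, Gaa, Glb1 and Sgsh). A match of letters is a description and not a binding site. Of the 5 genes that rose at 7 d and carry TCACGTG (Ctsa, Ctsd, Lamp1, Lgmn and Naglu), the 4 with the smallest adjusted p at 7 d are shown, which leaves out Ctsa. Each is the 120 bases that end just before the start, 5′ to 3′ on the gene's strand, with the core in capitals.
Ctsd, chr7:142387828-142387947, minus strand: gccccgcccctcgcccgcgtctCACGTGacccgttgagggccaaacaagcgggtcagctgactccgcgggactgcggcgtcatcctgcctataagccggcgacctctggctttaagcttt
Naglu, chr11:101069974-101070093, plus strand: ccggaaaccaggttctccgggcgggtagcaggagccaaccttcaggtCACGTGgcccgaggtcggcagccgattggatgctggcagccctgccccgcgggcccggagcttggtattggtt
Lamp1, chr8:13159041-13159160, plus strand: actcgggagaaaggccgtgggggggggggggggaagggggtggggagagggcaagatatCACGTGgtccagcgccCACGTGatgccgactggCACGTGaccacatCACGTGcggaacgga
Lgmn, chr12:102439093-102439212, minus strand, before 1 of its 2 RefSeq starts: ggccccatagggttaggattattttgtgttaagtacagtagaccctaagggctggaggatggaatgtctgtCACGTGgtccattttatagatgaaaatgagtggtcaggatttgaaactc
Lamp1 held 4 copies of the core, whose first bases lay 61, 45, 28 and 15 bases before the start, and the other 3 stretches of 120 bases held 1 each. In the 250 bases searched, Ctsd held 2 copies, and the one not shown began 245 bases before the start.

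**Figure D2:**
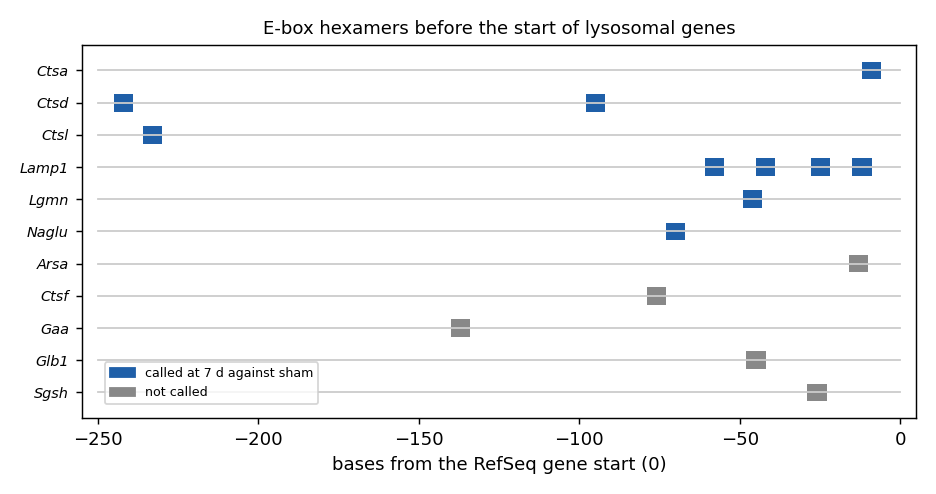
Position of the E-box core (bars) in the 250 bases before the RefSeq start of the 11 lysosomal genes that hold it, with 0 at the start. Blue genes rose at 7 d against sham and grey genes did not. Lamp1 holds 4 copies within 61 bases of its start, and Ctsd holds 2 copies.

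Of the 10 cysteine proteases of the set, 9 cathepsins and legumain, 8 rose at 7 d and 2 of these (Ctsc and Lgmn) also at 2 d. Their median log2 fold change was 0.96 at 2 d and 1.66 at 7 d. CPM values are listed in the order of the library numbers, and log2 fold changes are given ± SE. Ctss encodes cathepsin S, an elastin- and antigen-processing protease of macrophages and microglia, and stood at 50.4, 52.1, 44.0 and 50.9 CPM in sham, 111, 149.6, 92.6, 95.6 and 74.0 CPM at 2 d and 232, 90.8, 169.9, 366 and 396 CPM at 7 d. All 5 libraries at 2 d and all 5 at 7 d were above every sham library, and the gene rose at 7 d with a log2 fold change of 2.35 ± 0.35 (adjusted p = 0.00503) and again from 2 d to 7 d by 1.26 ± 0.31 (adjusted p = 0.0442), with 1.09 ± 0.34 (adjusted p = 0.0830) at 2 d. Ctso, which encodes the little-studied cathepsin O, measured 28.9, 28.9, 31.7 and 29.2 CPM in sham, 25.2, 29.7, 28.4, 21.5 and 31.0 CPM at 2 d and 45.1, 42.4, 44.1, 59.2 and 45.3 CPM at 7 d. None of the 2 d libraries was above the sham range, all 7 d libraries were above both other groups, and the log2 fold change was 0.67 ± 0.12 (adjusted p = 0.00921) at 7 d, 0.80 ± 0.11 (adjusted p = 0.00426) from 2 d to 7 d and -0.13 ± 0.12 (adjusted p = 0.555) at 2 d. Ctsc encodes dipeptidyl peptidase I, which activates the granule proteases of immune cells, and its values were 7.82, 9.45, 7.26 and 10.2 CPM in sham, 32.2, 65.5, 37.0, 38.7 and 18.1 CPM at 2 d and 26.5, 10.01, 22.7, 39.2 and 71.3 CPM at 7 d. Only CVST-7d-2 reached into the sham range, and Ctsc rose by 2.14 ± 0.47 (adjusted p = 0.0263) at 2 d and 1.97 ± 0.47 (adjusted p = 0.0295) at 7 d. Lgmn, the gene of legumain or asparagine endopeptidase, which processes other cathepsins, had 95.7, 90.4, 88.7 and 101 CPM in sham, 223, 276, 205, 214 and 105 CPM at 2 d and 177, 119.7, 167, 256 and 307 CPM at 7 d. No CVST library overlapped with sham, and the log2 fold change was 1.12 ± 0.27 (adjusted p = 0.0351) at 2 d and 1.13 ± 0.27 (adjusted p = 0.0309) at 7 d.

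The other risen cathepsins passed the test at 7 d only, which does not show that 2 d and 7 d differed, since none of them passed in the direct comparison of the times. Ctsb encodes cathepsin B, the most abundant of the cathepsins here per transcript length (sham mean 195 FPKM, fragments scaled to transcript length and library size), and showed 618, 535, 478 and 525 CPM in sham, 838, 1061, 866, 793 and 576 CPM at 2 d and 1054, 591, 812, 1287 and 1899 CPM at 7 d. CVST-2d-5 and CVST-7d-2 lay within the sham range and the others above it, with a log2 fold change of 0.62 ± 0.26 (adjusted p = 0.190) at 2 d and 1.07 ± 0.27 (adjusted p = 0.0373) at 7 d. Ctsz, for the carboxypeptidase cathepsin Z, was at 26.6, 25.9, 19.3 and 27.5 CPM in sham, 61.7, 105, 61.9, 54.0 and 30.6 CPM at 2 d and 82.2, 31.7, 69.2, 122 and 190.3 CPM at 7 d. Ctsh, for the aminopeptidase cathepsin H, was at 13.2, 9.57, 9.91 and 11.9 CPM in sham, 29.4, 37.3, 23.2, 20.6 and 14.01 CPM at 2 d and 34.8, 14.4, 25.7, 58.6 and 82.7 CPM at 7 d. Ctsl, for the endopeptidase cathepsin L, was at 78.7, 72.4, 70.9 and 80.2 CPM in sham, 145, 188, 119.7, 124 and 101 CPM at 2 d and 176, 103, 121, 199 and 402 CPM at 7 d. For these 3 genes all CVST libraries were above all sham libraries, and the 7 d group spread widest, up to CVST-7d-5. Ctsz rose at 7 d by 1.999 ± 0.43 (adjusted p = 0.0201), beside 1.34 ± 0.42 (adjusted p = 0.0872) at 2 d. Ctsh rose at 7 d by 1.96 ± 0.42 (adjusted p = 0.0202), beside 1.161 ± 0.41 (adjusted p = 0.123) at 2 d. Ctsl rose at 7 d by 1.41 ± 0.32 (adjusted p = 0.0252), beside 0.84 ± 0.32 (adjusted p = 0.141) at 2 d. The other 2 cathepsins did not pass. Ctsk, the bone-matrix protease cathepsin K, was at 1.90 to 3.29 CPM in sham, 3.18 to 6.02 CPM at 2 d and 2.03 to 30.3 CPM at 7 d with a log2 fold change of 1.91 ± 0.62 (adjusted p = 0.102) at 7 d, beside 0.68 ± 0.61 (adjusted p = 0.557) at 2 d. Ctsf, for cathepsin F, was at 43.5 to 51.4 CPM in sham, 28.7 to 51.2 CPM at 2 d and 46.5 to 54.4 CPM at 7 d, with 0.06 ± 0.13 (adjusted p = 0.832) at 7 d.

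With 1 library left out at a time, Ctss and Ctso remained called at 7 d in all 14 fits, and Ctso also from 2 d to 7 d. For Ctsb the 7 d call was lost without any 1 of sham-1 to sham-4, CVST-2d-1, CVST-2d-3, CVST-7d-1, CVST-7d-4 or CVST-7d-5 (adjusted p = 0.0534 to 0.120). Ctsc and Lgmn no longer passed at 7 d without any 1 of sham-1 to sham-4, CVST-7d-4 or CVST-7d-5 (adjusted p = 0.0580 to 0.104). For Ctsl and Ctsz the 7 d call was lost without any 1 of sham-1 to sham-4 or CVST-7d-4 (adjusted p = 0.0509 to 0.0889). Ctsh no longer passed at 7 d without sham-2, sham-3, sham-4 or CVST-7d-4 (adjusted p = 0.0534 to 0.0802). For Ctsc the 2 d call was lost without any 1 of sham-1 to sham-4 or CVST-2d-2 (adjusted p = 0.0602 to 0.0916). Lgmn no longer passed at 2 d without any 1 of sham-1 to sham-4, CVST-2d-1, CVST-2d-2, CVST-2d-3 or CVST-2d-4 (adjusted p = 0.0643 to 0.111). For Ctss the call from 2 d to 7 d was lost without any 1 of sham-1 to sham-4, CVST-2d-1, CVST-2d-3, CVST-2d-4, CVST-7d-1, CVST-7d-3, CVST-7d-4 or CVST-7d-5 (adjusted p = 0.0525 to 0.118).

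All 4 remaining proteases and lysozyme rose at 7 d, and 0 of the 4 at 2 d, with 2 of them at an unadjusted p below 0.05 there and with 1 called by DESeq2 and 0 by limma voom. Lyz2 encodes the lysozyme of macrophages, which cleaves bacterial cell walls, and had the largest fold change of the tested genes of the set. Its values were 7.47, 7.51, 5.41 and 6.79 CPM in sham, 29.2, 136, 42.2, 31.7 and 12.2 CPM at 2 d and 515, 12.99, 155, 361 and 1775 CPM at 7 d. CVST-7d-5 alone stood far above the others, although all CVST libraries were above all sham libraries. The log2 fold change of Lyz2 was 6.38 ± 1.18 (adjusted p = 0.0117) at 7 d, and 5.27 without CVST-7d-5, beside 2.89 ± 1.02 (adjusted p = 0.121) at 2 d. Reads of Lyz2 can be shared with its near-identical neighbour Lyz1, so its level is uncertain to that extent. Ctsd encodes cathepsin D, the main aspartic protease of the lysosome, and measured 328, 309, 292 and 342 CPM in sham, 619.8, 900.4, 534, 565 and 309 CPM at 2 d and 1077, 399, 913, 1739 and 2723 CPM at 7 d. All 7 d libraries were above sham, only CVST-2d-5 of the earlier libraries was not, and the log2 fold change was 2.11 ± 0.43 (adjusted p = 0.0170) at 7 d and 0.88 ± 0.41 (adjusted p = 0.228) at 2 d. Ctsa, which encodes the protective protein that stabilises beta-galactosidase and neuraminidase, gave 87.5, 83.9, 82.3 and 89.3 CPM in sham, 110.2, 127, 103, 96.2 and 100.04 CPM at 2 d and 132, 90.4, 123, 199.9 and 255 CPM at 7 d. No CVST library overlapped with sham, and Ctsa rose at 7 d by 0.90 ± 0.23 (adjusted p = 0.0385), with 0.32 ± 0.22 (adjusted p = 0.430) at 2 d. Tpp1 encodes tripeptidyl peptidase, lost in a childhood neuronal ceroid lipofuscinosis, and gave 67.6, 66.8, 65.1 and 76.1 CPM in sham, 67.0, 80.8, 63.4, 64.8 and 74.5 CPM at 2 d and 91.0, 76.5, 88.5, 106 and 125 CPM at 7 d. At 2 d only CVST-2d-2 was above the sham range, at 7 d all libraries were, and Tpp1 was higher at 7 d than in sham by 0.50 ± 0.12 (adjusted p = 0.0354) and than at 2 d by 0.47 ± 0.12 (adjusted p = 0.0429). Lyz2 no longer passed at 7 d without sham-3 or sham-4 (adjusted p = 0.0517 to 0.0572). For Ctsd the 7 d call was lost without sham-2, sham-3 or sham-4 (adjusted p = 0.0600 to 0.0700). Ctsa no longer passed at 7 d without any 1 of sham-1 to sham-4, CVST-2d-1, CVST-2d-3, CVST-7d-4 or CVST-7d-5 (adjusted p = 0.0552 to 0.116). For Tpp1 the 7 d call was lost without any 1 of sham-1 to sham-4, CVST-2d-3, CVST-7d-4 or CVST-7d-5 (adjusted p = 0.0501 to 0.117). Tpp1 no longer passed from 2 d to 7 d without any 1 of sham-1 to sham-4, CVST-2d-1, CVST-2d-3, CVST-2d-4, CVST-7d-1, CVST-7d-3, CVST-7d-4 or CVST-7d-5 (adjusted p = 0.0538 to 0.122).

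**Figure D3:**
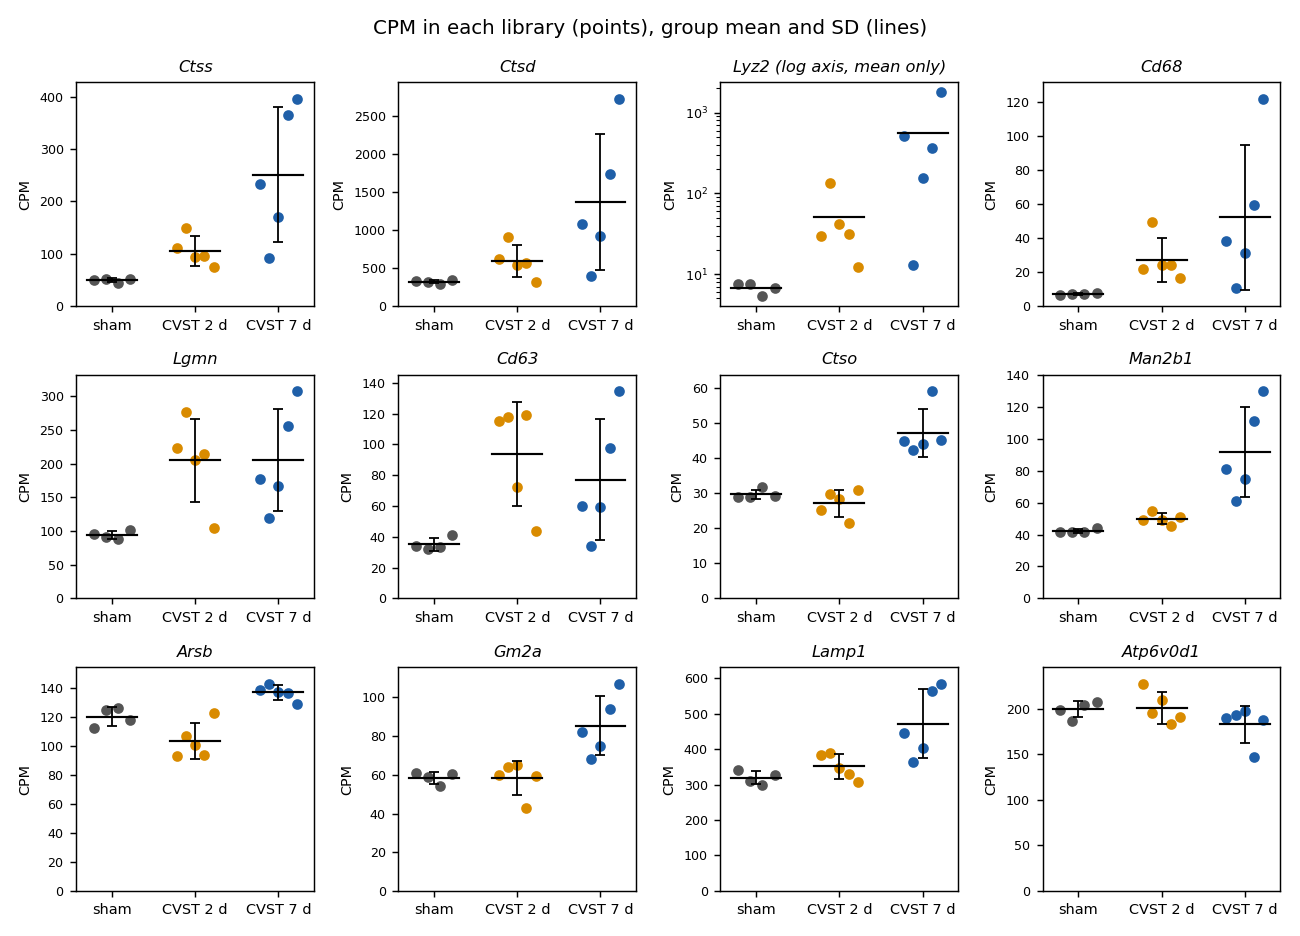
CPM of 12 lysosomal genes in each library (points, by group), with the group mean (horizontal line) and SD (error bar). The axis of Lyz2 is logarithmic and has no SD bar, and all others start at 0. Ctso, Man2b1, Arsb and Gm2a show every 7 d library above every 2 d library, and Atp6v0d1 shows 7 d libraries within or below the sham range.

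Among the 10 glycosidases, 5 rose at 7 d and 0 at 2 d, where 1 had an unadjusted p below 0.05, DESeq2 called 0 and limma voom called 1. Man2b1 encodes alpha-mannosidase, which trims mannose from glycoproteins, and was at 41.3, 41.4, 41.6 and 44.2 CPM in sham, 49.0, 54.7, 48.9, 45.3 and 51.3 CPM at 2 d and 81.3, 61.3, 74.7, 111 and 129.9 CPM at 7 d. The 3 groups did not overlap, in the order sham, 2 d and 7 d, and the log2 fold change was 1.12 ± 0.17 (adjusted p = 0.00568) at 7 d, 0.88 ± 0.16 (adjusted p = 0.0145) from 2 d to 7 d and 0.24 ± 0.17 (adjusted p = 0.432) at 2 d. Gusb, the beta-glucuronidase gene, was at 13.4, 11.9, 11.8 and 12.99 CPM in sham, 30.7, 43.4, 31.5, 29.8 and 16.2 CPM at 2 d and 28.6, 13.5, 23.7, 45.9 and 95.8 CPM at 7 d. All CVST libraries lay above sham, those at 7 d spread over the whole 2 d range, and Gusb rose at 7 d by 1.74 ± 0.45 (adjusted p = 0.0422), with 1.28 ± 0.44 (adjusted p = 0.115) at 2 d. Naglu encodes the N-acetylglucosaminidase that is lacking in a form of Sanfilippo disease, and was at 7.88, 5.75, 6.11 and 7.06 CPM in sham, 10.6, 11.4, 9.95, 8.09 and 10.3 CPM at 2 d and 13.03, 7.54, 14.5, 21.04 and 27.3 CPM at 7 d. CVST-7d-2 alone stayed within the sham range, and the log2 fold change was 1.32 ± 0.28 (adjusted p = 0.0192) at 7 d and 0.59 ± 0.28 (adjusted p = 0.233) at 2 d. Hexa, for the alpha subunit of beta-hexosaminidase, whose loss causes Tay-Sachs disease, had 42.8, 46.5, 44.3 and 52.0 CPM in sham, 55.03, 61.0, 44.2, 45.7 and 39.4 CPM at 2 d and 73.0, 47.3, 70.8, 109 and 146 CPM at 7 d. Only CVST-7d-2 of the 7 d libraries was not above the sham range, against 3 of the 5 libraries at 2 d, and Hexa rose at 7 d by 0.95 ± 0.25 (adjusted p = 0.0464), with 0.08 ± 0.25 (adjusted p = 0.882) at 2 d. Fuca1, the alpha-fucosidase gene, had 9.35, 8.96, 12.2 and 9.59 CPM in sham, 14.1, 12.8, 11.2, 10.7 and 13.5 CPM at 2 d and 15.5, 15.3, 11.2, 21.6 and 20.1 CPM at 7 d. CVST-7d-3 overlapped with sham, the other 7 d libraries did not, and Fuca1 rose at 7 d by 0.74 ± 0.17 (adjusted p = 0.0297), with 0.31 ± 0.17 (adjusted p = 0.320) at 2 d. The 5 other glycosidases did not pass at either time. Their log2 fold changes at 7 d were 0.53 for Manba, 0.40 for Glb1, 0.38 for Idua, -0.10 for Neu1 and -0.29 for Gaa, the enzymes beta-mannosidase, beta-galactosidase, iduronidase, neuraminidase and glycogen-degrading alpha-glucosidase. For Gaa and Neu1 no 7 d library was above the highest sham library. Man2b1 stayed called at 7 d and from 2 d to 7 d in all 14 fits with 1 library left out. For Gusb the 7 d call was lost without any 1 of sham-1 to sham-4, CVST-2d-1, CVST-2d-3, CVST-2d-4, CVST-7d-4 or CVST-7d-5 (adjusted p = 0.0539 to 0.124). Naglu no longer passed at 7 d without sham-2, sham-3, sham-4 or CVST-7d-4 (adjusted p = 0.0531 to 0.0777). For Hexa the 7 d call was lost without any 1 of sham-1 to sham-4, CVST-2d-1, CVST-2d-3, CVST-2d-4, CVST-7d-1, CVST-7d-4 or CVST-7d-5 (adjusted p = 0.0513 to 0.132). Fuca1 no longer passed at 7 d without any 1 of sham-1 to sham-4, CVST-7d-4 or CVST-7d-5 (adjusted p = 0.0584 to 0.0947).

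The 5 sulfatases and sulfamidase, which remove sulfate from lipids and sugar chains, did not pass in either comparison with sham, with 1 at an unadjusted p below 0.05 at 2 d and 2 at 7 d. For these 5 genes DESeq2 called 0 in both comparisons with sham, and limma voom called 2 lower at 2 d and 0 at 7 d. Arsb encodes the sulfatase that acts on dermatan and chondroitin sulfate, and was at 112, 125, 127 and 118 CPM in sham, 93.5, 107, 101, 93.8 and 123 CPM at 2 d and 139, 143, 138, 137 and 129 CPM at 7 d. All 7 d libraries were above all sham and all 2 d libraries, by a narrow margin, and Arsb was higher at 7 d than at 2 d by a log2 fold change of 0.41 ± 0.08 (adjusted p = 0.0168), in all 14 fits with 1 library left out. Against sham its log2 fold change was -0.22 ± 0.08 (adjusted p = 0.139) at 2 d and 0.19 ± 0.08 (adjusted p = 0.220) at 7 d. The other 4 had log2 fold changes at 7 d of 0.78 (Galns), 0.33 (Sgsh), 0.09 (Arsa) and -0.04 (Ids). Sgsh, the sulfamidase gene, was the lowest tested member per length in sham, with a mean of 1.65 FPKM.

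Of 9 genes for lipid hydrolases, their activators and sterol carriers, 5 rose at 7 d and 0 at 2 d, where 0 also had an unadjusted p below 0.05 and DESeq2 and limma voom called 0. Gm2a encodes the activator that lifts gangliosides out of the membrane for their breakdown, and was at 60.8, 58.9, 54.1 and 60.2 CPM in sham, 60.2, 63.8, 65.0, 43.1 and 59.6 CPM at 2 d and 82.4, 68.4, 75.2, 94.1 and 107 CPM at 7 d. All 7 d libraries were above both other groups, CVST-2d-4 was below the sham range, and Gm2a was higher at 7 d by 0.55 ± 0.13 (adjusted p = 0.0343) against sham and 0.55 ± 0.13 (adjusted p = 0.0340) against 2 d. Lipa, which encodes the acid lipase of cholesteryl esters, was at 14.5, 19.1, 17.4 and 21.7 CPM in sham, 22.6, 30.9, 25.4, 26.7 and 17.5 CPM at 2 d and 32.0, 20.5, 31.8, 43.4 and 82.7 CPM at 7 d. CVST-7d-2 and CVST-2d-5 lay within the sham range, and the log2 fold change was 1.21 ± 0.31 (adjusted p = 0.0435) at 7 d and 0.44 ± 0.31 (adjusted p = 0.441) at 2 d. Npc1 and Npc2 encode the membrane-bound and the soluble protein that carry cholesterol out of the lysosome. Npc1 was at 63.1, 59.5, 51.5 and 49.4 CPM in sham, 58.3, 66.2, 61.0, 57.4 and 59.3 CPM at 2 d and 78.0, 62.7, 70.6, 105 and 94.1 CPM at 7 d. Npc2 was at 51.4, 50.9, 42.6 and 56.3 CPM in sham, 73.6, 81.0, 61.3, 56.2 and 47.7 CPM at 2 d and 93.5, 59.7, 72.4, 125 and 156 CPM at 7 d. At 7 d all libraries were above sham for Npc2, and all but CVST-7d-2 for Npc1. Npc1 rose at 7 d by 0.56 ± 0.13 (adjusted p = 0.0296), with 0.11 ± 0.13 (adjusted p = 0.656) at 2 d, and Npc2 by 1.01 ± 0.24 (adjusted p = 0.0301), with 0.35 ± 0.24 (adjusted p = 0.423) at 2 d. Ppt1 encodes the palmitoyl thioesterase that is lost in infantile ceroid lipofuscinosis, and was at 100.2, 93.0, 87.1 and 94.7 CPM in sham, 98.8, 101, 107, 92.6 and 96.0 CPM at 2 d and 112, 104, 107, 119.8 and 114 CPM at 7 d. All 7 d libraries were above sham though close to it, and Ppt1 had the smallest rise of the 27, 0.25 ± 0.07 (adjusted p = 0.0488), with 0.08 ± 0.07 (adjusted p = 0.519) at 2 d. Psap, which encodes the precursor of the saposins, was the highest of all 47 genes per length, at a mean of 609 FPKM in sham and 756 FPKM at 7 d, and did not pass: its CPM were 1477, 1502, 1459 and 1571 CPM in sham, 1607, 1493, 1545, 1457 and 1574 CPM at 2 d and 1794, 1600.5, 1649.8, 1639 and 2263 CPM at 7 d, above the sham range in all 7 d libraries, with a log2 fold change of 0.25 ± 0.10 (adjusted p = 0.156). The log2 fold changes at 7 d of the other 3 were 0.42 for Asah1 (acid ceramidase), 0.40 for Galc (galactosylceramidase) and -0.06 for Smpd1 (acid sphingomyelinase). For Gm2a the 7 d call was lost without any 1 of sham-1 to sham-4, CVST-7d-1, CVST-7d-4 or CVST-7d-5 (adjusted p = 0.0513 to 0.116). Gm2a no longer passed from 2 d to 7 d without sham-2, CVST-2d-1, CVST-2d-3, CVST-2d-4, CVST-7d-1, CVST-7d-4 or CVST-7d-5 (adjusted p = 0.0530 to 0.0894). For Lipa the 7 d call was lost without any 1 of sham-1 to sham-4, CVST-2d-1, CVST-2d-3, CVST-2d-4, CVST-7d-4 or CVST-7d-5 (adjusted p = 0.0549 to 0.125). Npc1 no longer passed at 7 d without sham-2, sham-3, sham-4, CVST-7d-4 or CVST-7d-5 (adjusted p = 0.0680 to 0.106). For Npc2 the 7 d call was lost without any 1 of sham-1 to sham-4, CVST-7d-4 or CVST-7d-5 (adjusted p = 0.0596 to 0.107). Ppt1 no longer passed at 7 d without any 1 of sham-1 to sham-4, CVST-2d-1, CVST-2d-2, CVST-2d-3, CVST-7d-1, CVST-7d-3, CVST-7d-4 or CVST-7d-5 (adjusted p = 0.0561 to 0.170).

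Of 5 membrane glycoproteins, 4 rose at 7 d and the fifth, Cd63, at 2 d. Cd68 encodes a heavily glycosylated lysosomal protein of macrophages, much used to stain them, and was at 6.18, 6.78, 7.21 and 7.54 CPM in sham, 21.8, 49.7, 24.2, 23.9 and 16.4 CPM at 2 d and 38.2, 10.4, 31.2, 59.4 and 122 CPM at 7 d. All CVST libraries were above sham, CVST-2d-2 stood apart from the other 2 d libraries, and the log2 fold change was 2.91 ± 0.55 (adjusted p = 0.0129) at 7 d, 2.33 without CVST-7d-5, and 1.97 ± 0.54 (adjusted p = 0.0537) at 2 d. Cd63 encodes a tetraspanin of late endosomes and exosomes, and was at 34.1, 31.9, 33.3 and 40.9 CPM in sham, 115, 118, 72.5, 119 and 43.9 CPM at 2 d and 59.7, 34.1, 59.0, 97.5 and 134 CPM at 7 d. All 2 d libraries were above sham, and at 7 d all but CVST-7d-2, and Cd63 rose at 2 d by 1.42 ± 0.36 (adjusted p = 0.0415), with 1.14 ± 0.35 (adjusted p = 0.0875) at 7 d. The difference between the times was -0.28 ± 0.32 (adjusted p = 0.654). Lamp1 and Lamp2 encode the main glycoproteins of the lysosomal membrane. Lamp1 was at 341, 311, 299.8 and 328 CPM in sham, 385, 389.8, 347, 329.9 and 306 CPM at 2 d and 446, 364, 403, 565 and 585 CPM at 7 d. Lamp2 was at 84.1, 77.6, 65.9 and 77.5 CPM in sham, 108, 121, 98.2, 121 and 80.9 CPM at 2 d and 118, 87.9, 109, 161 and 162 CPM at 7 d. For both genes all 7 d libraries were above sham, and CVST-7d-2 was the closest to it. Lamp1 rose at 7 d by 0.56 ± 0.13 (adjusted p = 0.0289), with 0.14 ± 0.13 (adjusted p = 0.583) at 2 d, and Lamp2 by 0.74 ± 0.17 (adjusted p = 0.0274), with 0.47 ± 0.17 (adjusted p = 0.129) at 2 d. Scarb2, for the receptor that brings beta-glucocerebrosidase to the lysosome, was at 148, 132, 130.1 and 124 CPM in sham, 153, 138, 130.4, 160.1 and 128 CPM at 2 d and 169.8, 156, 160.2, 201 and 169 CPM at 7 d. All 7 d libraries were above sham by a small margin, and Scarb2 rose at 7 d by 0.36 ± 0.09 (adjusted p = 0.0438), with 0.09 ± 0.09 (adjusted p = 0.631) at 2 d. For Cd68 the 7 d call was lost without sham-2, sham-3 or sham-4 (adjusted p = 0.0504 to 0.0572). Cd63 no longer passed at 2 d without any 1 of sham-1 to sham-4, CVST-2d-1, CVST-2d-2, CVST-2d-3, CVST-2d-4, CVST-7d-1 or CVST-7d-3 (adjusted p = 0.0512 to 0.129). For Lamp1 and Lamp2 the 7 d call was lost without any 1 of sham-1 to sham-4, CVST-7d-4 or CVST-7d-5 (adjusted p = 0.0509 to 0.104). Scarb2 no longer passed at 7 d without sham-2, sham-3, sham-4, CVST-2d-2, CVST-2d-3, CVST-7d-1, CVST-7d-3, CVST-7d-4 or CVST-7d-5 (adjusted p = 0.0502 to 0.143).

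Grn encodes progranulin, a secreted protein that is sorted to the lysosome and cut into granulins there, and was at 42.1, 45.0, 49.5 and 48.0 CPM in sham, 75.4, 114, 81.4, 69.4 and 57.8 CPM at 2 d and 138, 68.5, 116, 229 and 345 CPM at 7 d. All CVST libraries were above sham, CVST-7d-2 was the lowest at 7 d, and Grn rose at 7 d by 1.96 ± 0.37 (adjusted p = 0.0117), with 0.79 ± 0.35 (adjusted p = 0.211) at 2 d. For Grn the 7 d call was lost without sham-3 (adjusted p = 0.0503). Tfeb encodes the transcription factor of the E-box motif above, and was at 8.18, 5.81, 6.01 and 5.23 CPM in sham, 7.88, 10.5, 7.33, 7.26 and 4.81 CPM at 2 d and 6.62, 6.02, 6.30, 8.48 and 11.5 CPM at 7 d. The 3 groups overlapped, and its log2 fold change was 0.26 ± 0.24 (adjusted p = 0.554) at 2 d and 0.31 ± 0.24 (adjusted p = 0.507) at 7 d. RNA level says nothing of where the TFEB protein was in the cell. Atp6v0d1 and Atp6v0d2 encode alternative versions of the d subunit of the pump that acidifies the lysosome, the second known from osteoclasts and macrophages. Atp6v0d1 was at 187 to 207 CPM in sham, 183 to 228 CPM at 2 d and 147 to 197 CPM at 7 d, with a log2 fold change of -0.12 ± 0.09 (adjusted p = 0.494) at 7 d. Atp6v0d2 had 0 reads in all 4 sham libraries, 2, 3, 2, 1 and 2 reads in CVST-2d-1 to CVST-2d-5, and 143, 0, 6, 33 and 600 reads in CVST-7d-1 to CVST-7d-5. A floor of 3 reads over the 4 sham libraries was set, which covers counting error in sham only. Atp6v0d2 stood 222-fold above that floor over the 5 libraries at 7 d, and 66.7-fold above it without CVST-7d-5. At 2 d, with 10 reads in all, Atp6v0d2 stood 2.66-fold above the floor, and no counting error was put on those 10 reads. The gene did not pass edgeR's filter, which asks for as many libraries above 0.570 CPM as the smallest group holds, here 4. Only CVST-7d-1, CVST-7d-4 and CVST-7d-5 were above that level (9.97, 1.84 and 31.5 CPM), and CVST-7d-2 held no read of it.

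**Figure D4:**
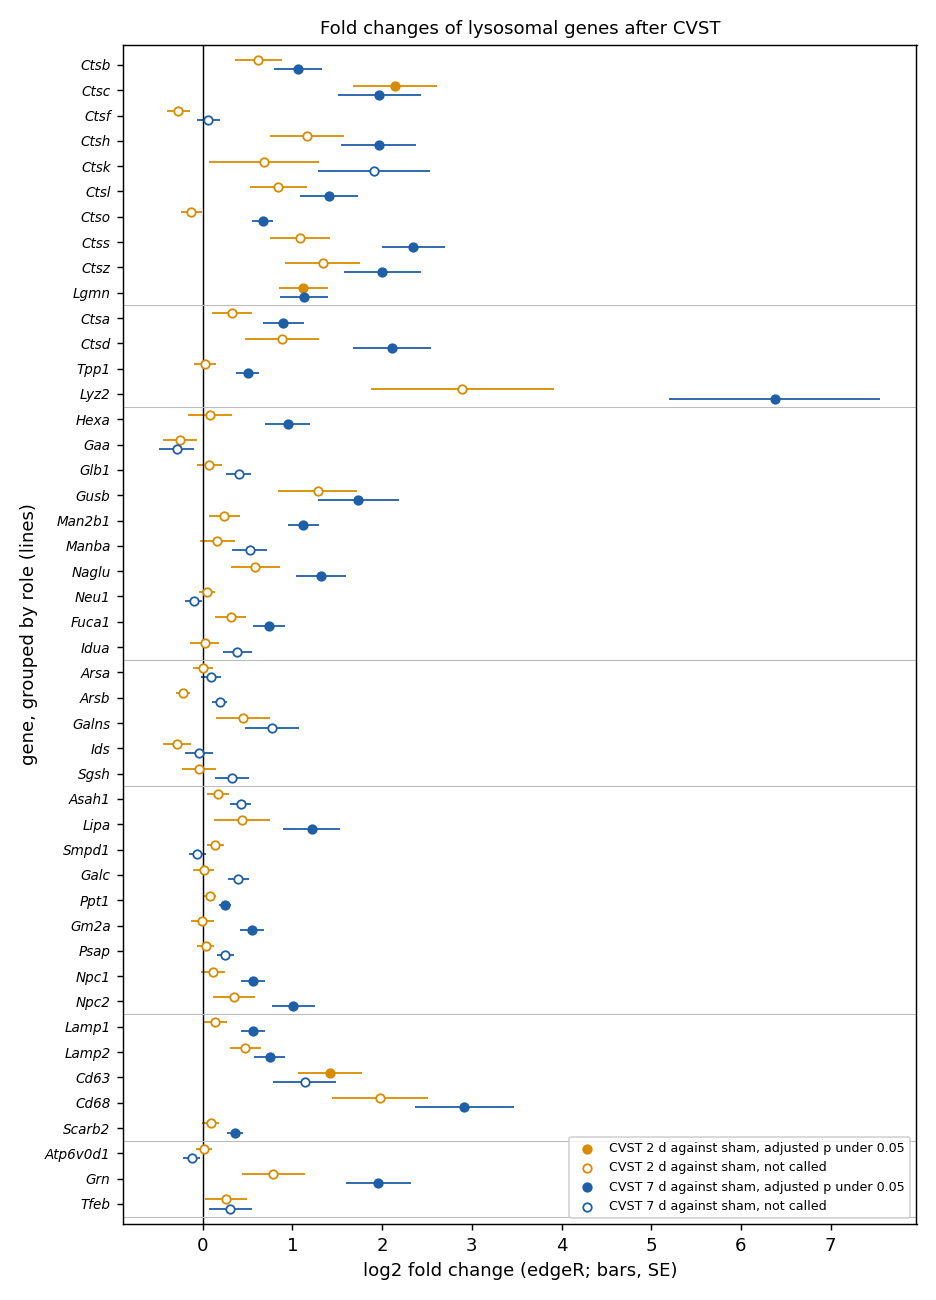
Log2 fold changes against sham of the 46 tested lysosomal genes at 2 d (orange) and 7 d (blue), with SE bars, grouped by role. Filled points passed an adjusted p of 0.05: 3 at 2 d and 27 at 7 d, none of them below 0. Both comparisons use the same 4 sham libraries.

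Per length, the order of the genes differed between groups. In sham the highest mean levels were those of Psap (609 FPKM), Ctsb (195 FPKM), Ctsd (165 FPKM) and Lamp1 (158 FPKM). At 7 d they were those of Psap (756 FPKM), Ctsd (747 FPKM), Lyz2 (543 FPKM) and Ctsb (451 FPKM). Lyz2 thus went from rank 38 of 47 in sham, at a mean of 6.23 FPKM, to rank 3. The mean of Lyz2 at 7 d came with a spread of 12.2 to 1722 FPKM over the 5 libraries, with the lowest value in CVST-7d-2 and the highest in CVST-7d-5. Ctss was at rank 13 in sham (43.7 FPKM) and 6 at 7 d (233 FPKM).

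A wider list of 80 lysosomal genes, none of them among the 47, gave a smaller share of called genes. Of the 80 names 79 were in the table and 78 were tested. At 7 d 12 rose (15.4%) and 0 fell, where 3.61% of all tested genes rose and 0.833% fell. At 2 d 3 rose (3.85%) and 0 fell, where 2.98% of all tested genes rose and 0.969% fell. From 2 d to 7 d 2 were higher (2.56%) and 0 lower, where 1.54% of all tested genes were higher and 1.25% lower. The shares at 2 d and between the times were thus near those of all tested genes. For the counts of 0 lower, 3 genes had an unadjusted p below 0.05 at 7 d, 3 at 2 d and 4 between the times, and DESeq2 and limma voom called 0 lower against sham at either time and 1 lower between the times. The median log2 fold change was 0.15 at 7 d, 0.08 at 2 d and 0.12 between the times. Among the genes with the smallest adjusted p at 7 d were Cst7, an inhibitor of cathepsins (log2 fold change 6.53, adjusted p = 0.00568), Slc11a1, a metal transporter of the phagosome (log2 fold change 2.94, adjusted p = 0.00918), Gpnmb, a glycoprotein of macrophages and pigment cells (log2 fold change 6.36, adjusted p = 0.00894), and Laptm5, a lysosomal protein of blood cells (log2 fold change 1.99, adjusted p = 0.0185). At 2 d the risen genes were Cst7 (log2 fold change 4.45, adjusted p = 0.0319), Slc11a1 (log2 fold change 2.03, adjusted p = 0.0385) and Ifi30, a thiol reductase for antigen processing (log2 fold change 2.79, adjusted p = 0.0334). From 2 d to 7 d they were Gpnmb (log2 fold change 4.05, adjusted p = 0.0194) and Cst3, the cystatin C gene (log2 fold change 0.56, adjusted p = 0.0340). Sqstm1, an autophagy receptor, did not pass at 7 d (log2 fold change -0.18, adjusted p = 0.236). Among the 15 proton pump genes of this list named Atp6, 0 passed in any of the 3 comparisons by edgeR, DESeq2 or limma voom, with 0, 1 and 1 at an unadjusted p below 0.05 at 2 d, at 7 d and between the times. Tcirg1, the a3 subunit of the pump in macrophages and osteoclasts, rose at 7 d (log2 fold change 1.49, adjusted p = 0.0338), and was singled out after its values were seen. With 1 library left out at a time, Cst7, Slc11a1 and Gpnmb remained called at 7 d in all 14 fits. Laptm5 lost the 7 d call without any 1 of the sham libraries (adjusted p = 0.0509 to 0.0759), and Tcirg1 without any 1 of the sham libraries, CVST-7d-4 or CVST-7d-5 (adjusted p = 0.0621 to 0.104). At 2 d Cst7, Slc11a1 and Ifi30 each lost the call without any 1 of the sham libraries, CVST-2d-1, CVST-2d-2 or CVST-2d-4, Slc11a1 and Ifi30 also without CVST-2d-3, and Slc11a1 also without CVST-7d-3 (adjusted p = 0.0502 to 0.130). Between the times Gpnmb lost it without CVST-2d-1, CVST-2d-3 or CVST-2d-4 (adjusted p = 0.0536 to 0.0662), and Cst3 without sham-3, CVST-2d-2, CVST-2d-3, CVST-2d-4 or any 1 of the 7 d libraries but CVST-7d-2 (adjusted p = 0.0502 to 0.0889). The count called on the wider list at 7 d was 5, 3, 3 and 3 without sham-1 to sham-4, 7 without CVST-7d-4 or CVST-7d-5, and between 10 and 17 in the other fits.

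The deposited counts set limits to single genes. Gene totals ran from 14696104 to 20798651 counts a library, and every tested lysosomal gene had at least 32 counts in each. Counting by strand is not stated, and 16 of the 47 genes share exon positions with another gene in GENCODE M21, 3 of them (Ctsd, Ctsl and Glb1) with a gene on the same strand, so reads of such partners cannot be told apart. The rows of 21 of the 47 genes were loci of an assembled transcriptome joined to an Ensembl gene. Replicates differed by more than sampling noise, with a chi-square per degree of freedom of at least 8.27 between libraries of a group.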

How the data were processed

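Per the submitters' processing notes, reads were handled with fastp and HISAT2 on mouse build mm39, and DESeq2 1.16.1 was used. The counting tool and annotation are not stated there. The authors deposited whole-number read counts per gene, which were tested here, and FPKM values, which were used only to order genes by level. Of 55894 rows, 535 had no Ensembl gene and were left out (0.203% to 0.278% of counts). Counts were scaled with TMM factors and filtered with filterByExpr, and edgeR 4.0.16 (R 4.3.3) was fitted to all 14 libraries with group means. Tests were 2-sided, with Benjamini-Hochberg adjustment over 16918 genes. CPM values use the TMM-scaled library sizes. Alternatives were DESeq2 1.42.0, limma 3.58.1 voom with sample weights, DESeq2 size factors, no low-count filter, fits of the 2 groups compared only, a replicate block, and each library left out. A further fit left out both CVST-2d-5 and CVST-7d-2, which had the smallest lysosomal shares of their groups. Values in every library are given for genes called in any comparison and for Ctsd, Lamp1, Tfeb, Ctsb and Atp6v0d2, others as ranges or fold changes; of the wider list, the called genes with the smallest adjusted p, at most 6 a comparison, plus Gpnmb and Sqstm1. Some genes that this rule names are not reported here. Psap and Tcirg1 were added after their values were seen. The members and lists were chosen with earlier results of these data known. Fold changes and SE are log2 values computed here from the deposited counts.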

Additional observations from a re-analysis of the deposited data

Results flagged for a closer look

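In 9 cases 1 library stood apart from the rest of its group, by the gap to its nearest neighbour over the range of the group; chance gives this in about 1 of 20 groups, and 3 groups were examined for each gene. At 7 d, CVST-7d-5 had 30.3 CPM of Ctsk against 2.03 to 8.71 CPM in the other 4, and 1775 CPM of Lyz2 against 12.99 to 515 CPM. CVST-7d-4 had 59.2 CPM of Ctso against 42.4 to 45.3 CPM, and 147 CPM of Atp6v0d1 against 187 to 197 CPM. At 2 d, CVST-2d-2 had 136 CPM of Lyz2 against 12.2 to 42.2 CPM, and 49.7 CPM of Cd68 against 16.4 to 24.2 CPM. CVST-2d-4 had 43.1 CPM of Gm2a against 59.6 to 65.0 CPM. In sham, sham-3 had 31.7 CPM of Ctso against 28.9 to 29.2 CPM, and sham-4 had 44.2 CPM of Man2b1 against 41.3 to 41.6 CPM.

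For 6 genes the change from sham differed between 2 d and 7 d, by edgeR's test of 7 d against 2 d. The log2 difference, higher at 7 d, was 0.80 for Ctso, 1.26 for Ctss, 0.47 for Tpp1, 0.88 for Man2b1, 0.41 for Arsb and 0.55 for Gm2a.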

How the results depend on the processing

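Lysosomal genes called higher at 2 d numbered 3 in the fit reported, 8 with DESeq2, 11 with limma voom, 13 when only sham and 2 d were fitted, and 13 without both CVST-2d-5 and CVST-7d-2. Called lower at 2 d were 3 with limma voom and 2 without both libraries. Called higher at 7 d were 27 as reported, 32 with DESeq2, 23 with limma voom, 33 without both libraries and 13 in the fit of sham and 7 d only. From 2 d to 7 d the counts were 6 as reported, 16 with DESeq2, 1 in the fit of those groups only and 15 without both libraries. For the wider lysosome list the counts at 2 d were 6 with DESeq2, 10 with limma voom, 7 with only the groups compared and 11 without both libraries, against 3. At 7 d they were 20 with DESeq2 and 20 without both libraries, against 12. From 2 d to 7 d they were 12, 4, 0 and 7 under the same 4 settings, against 2. Without single libraries, the lysosomal genes called higher ran from 0 to 7 at 2 d, 3 to 32 at 7 d and 3 to 15 between the times, those called lower from 0 to 2 at 2 d and 0 to 0 at 7 d and between the times, and the wider list from 0 to 7, 3 to 17 and 0 to 6. The fit without both libraries drops those with the smallest lysosomal shares of their groups, which favours higher counts. The cause of the other shifts was not tested. The median log2 fold change lay between 0.16 and 0.27 at 2 d, 0.52 and 0.75 at 7 d, and 0.23 and 0.51 between the times over all alternatives run. Between 2 d and 7 d, Tfeb (0.05, not called) changed sign with limma voom (-0.19), without CVST-2d-5 (-0.08) and without CVST-7d-5 (-0.14), and ran up to 0.19 without CVST-2d-2. Over single genes and alternatives, 675 values kept their direction and side of the threshold, 257 lost the call, 10 gained it and 3 changed sign.

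The labels number the samples within each group. With the number as a replicate block, 0 lysosomal genes were called higher at 2 d, 2 at 7 d (Ctss and Man2b1) and 2 between the times (Ctso and Man2b1), and 0, 1 and 0 of the wider list. The deviations of same-numbered libraries correlated between -0.44 and 0.28 over 13 pairs, and those of differently numbered libraries between -0.33 and 0.34 over 52. What the numbers stand for is not stated in the labels, and overlapping ranges like these cannot tell whether same-numbered samples shared a batch.

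Levels of 1 bulk library each and groups of 4 or 5 limit what can be told: most calls lay close to the threshold and depended on single libraries, sham libraries included.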
